A study of Mus musculus with 32 samples.

Results

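An annotated retained-intron bin is a stretch of a gene that lies between 2 exon stretches and that fewer annotated transcripts contain than contain either of these neighbours. The bins were chosen from the annotation alone: a bin of at least 60 bases that touches another bin of its gene on both sides, and that fewer transcripts hold than either neighbour. Of 354841 exon bins in 37223 gene units, 8428 bins in 4425 gene units met this rule. The libraries came from P19 cells, a mouse embryonal carcinoma line, in which the SR protein SRSF1, SRSF2, SRSF3, SRSF4, SRSF5, SRSF6 or SRSF7 was knocked down for 36 hours with an esiRNA (a pool of short interfering RNAs cut enzymatically from a long RNA). Cells given an esiRNA against GFP, a sequence that P19 cells lack, served as the control for all 7 knockdowns, so every knockdown comparison shares the same control libraries. Polyadenylated RNA was sequenced from cytoplasmic and whole-cell lysates, with replicates A and B of each, which makes 32 libraries. The model is 1 cell line with partial depletion of 1 SR protein at a time.

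Introns are removed from pre-mRNA by the spliceosome, which recognises the 5′ and the 3′ splice site at the intron's ends. SR proteins bind exonic sequences through their RNA recognition motifs and help to recruit the spliceosome, and several of them also bind the export receptor NXF1 and act in mRNA export. Transcripts that keep an intron are commonly held in the nucleus or are destroyed in the cytoplasm by nonsense-mediated decay, and genes for splicing factors are known for such introns. A bin that passes the annotation rule can be a true retained intron, but it can also be the stretch between 2 annotated ends of a terminal exon.

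The label was checked against the annotation in the files. For 6063 of the 8428 bins, at least 1 transcript that contains both neighbours splices across the bin, as a retained intron requires. No transcript does so for the other 2365 bins, which are called "not spliced across" in what follows. At least 1 transcript of the type "retained intron" in GENCODE M1 holds the bin for 4821 bins. The bins were between 60 and 16699 bases long, with a median of 209 bases. At the length limit, bins of 60 to 69 bases with enough reads in their neighbours had a median retention of 70.2% in whole GFP control cells (78 bins), and bins of 50 to 59 bases, which the rule leaves out, had 76.6% (61 bins). Reads were absent from 516 bins in every library, and 3619 bins never reached the mean of 5 scaled reads that a test required.

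An exact match to a single GENCODE M1 intron was found for 5704 bins. Of these introns 5514 began with GT, 103 with GC, and 5613 ended with AG. The splice sites of the introns on which the results turn are printed below from the mm9 genome, each as the last exon bases followed by the first intron bases at the 5′ site, and the last intron bases followed by the first exon bases at the 3′ site, with the 2 bases at each intron end in capitals. They are shown because these ends define the stretch whose reads were counted, and because the intron of Rif1 that changed most in the SRSF1 knockdown starts with GC.
Rif1 intron 16, mm9 chr2:51949110-51950108, plus strand, 5′ splice site: aatGCaagt
Rif1 intron 16, 3′ splice site: ttgtttccttccctttgcAGgga
Abcf3 intron 17, mm9 chr16:20559453-20559713, plus strand, 5′ splice site: cagGTaatg
Abcf3 intron 17, 3′ splice site: accttcatttttgcctccAGgaa
Hdac5 intron 11, mm9 chr11:102066278-102066597, minus strand, 5′ splice site: gagGTacag
Hdac5 intron 11, 3′ splice site: tctcccgactgctcctctAGatg
Hdac5 intron 12, mm9 chr11:102065968-102066145, minus strand, 5′ splice site: accGTaagt
Hdac5 intron 12, 3′ splice site: tcaccctccaacttcaccAGgcc
Jmjd6 intron 5, mm9 chr11:116699078-116700303, minus strand, 5′ splice site: gagGTgagg
Jmjd6 intron 5, 3′ splice site: tttttcctccctgtgtccAGtgt
Gps2 intron 10, mm9 chr11:69729796-69729921, plus strand, 5′ splice site: aagGTaagg
Gps2 intron 10, 3′ splice site: aaaactcttatcattaccAGtca
Clk2 intron 3, mm9 chr3:88972846-88973536, plus strand, 5′ splice site: tcaGTgagt
Clk2 intron 3, 3′ splice site: ccccccccaccccccgacAGcag

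Each library held between 38874542 and 72741730 reads in exon bins. The retained-intron bins took 0.88 to 1.84% of these reads in the cytoplasm and 1.66 to 2.14% in whole cells. The targeted gene was left at 35.8 to 72.7% of the GFP control level in the cytoplasm and at 47.5 to 63.7% in whole cells, and the knockdown and control libraries did not overlap for 4 of 7 genes in the cytoplasm and 7 of 7 in whole cells. Malat1, a nuclear noncoding RNA, lay between 0.876 and 11.6 CPM (reads scaled to a common total of bin reads) in cytoplasmic libraries and between 182 and 413 in whole-cell libraries. In the cytoplasm it was higher in replicate A than in replicate B of 8 of 8 groups, and highest in SRSF3 knockdown A, where it was 11.6 CPM against 1.37 in SRSF3 knockdown B. That library also held the largest cytoplasmic share of reads in retained-intron bins, 1.84% against 0.934% in replicate B, and the part of nuclear RNA in the cytoplasmic results was not tested. Pou5f1, the pluripotency factor that marks embryonal carcinoma cells, lay between 836 and 1327 CPM in whole-cell libraries. Of the other markers listed for these cells, Nanog, Sox2, Lin28a, Sall4, Dnmt3b and Utf1 lay between 29.0 and 997 CPM there. Dppa4 was lower, at 9.58 to 18.2 CPM, and Zfp42 was nearly absent, at 0.283 to 1.04 CPM. The summed level of 9 markers of other cell types was higher in replicate B than in replicate A of 8 of 8 groups in both fractions, at 53.7 to 99.9 CPM in A and 231 to 368 in B in whole cells, and 99.2 to 157 in A and 333 to 499 in B in the cytoplasm. Most of it was Krt8 and Krt18, keratins of epithelial cells, with less of the smooth muscle genes Tagln and Acta2, and in whole cells Prss2 had no read. Cela2a, Cpa1, Prss2, Alb and Ptprc went the other way in the cytoplasm, with A above B in 7 or 8 of 8 groups. Their largest values there were 11.1 CPM for Cela2a and 4.12 for Alb, both in SRSF5 knockdown A. Both replicates of every group entered each comparison, and the main fits had no term for the letter. Counts from fits with such a term are given at the end, and the part of these marker differences in the results was not tested.

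Retention was expressed as the reads per base of a bin over the mean reads per base of its 2 neighbours, in percent, and summarised for the 3587 bins whose neighbours averaged at least 20 reads. In the GFP control the median retention was 0.0981 and 0.0765% in the cytoplasm of replicates A and B, against 4.09 and 3.8% in whole cells. The fractions did not overlap, and with 2 libraries in each an exact permutation test cannot give a p under 0.33. In such bulk libraries, fewer cells that hold an unspliced transcript and fewer such transcripts in each cell cannot be told apart. The 3053 bins that a transcript splices across had a median of 0.0810% in the cytoplasm and 2.94% in whole cells. The 534 bins not spliced across had medians of 76.6% in the cytoplasm and 82.9% in whole cells, so these bins were read nearly as often per base as their neighbours in either fraction.

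**Figure D1:**
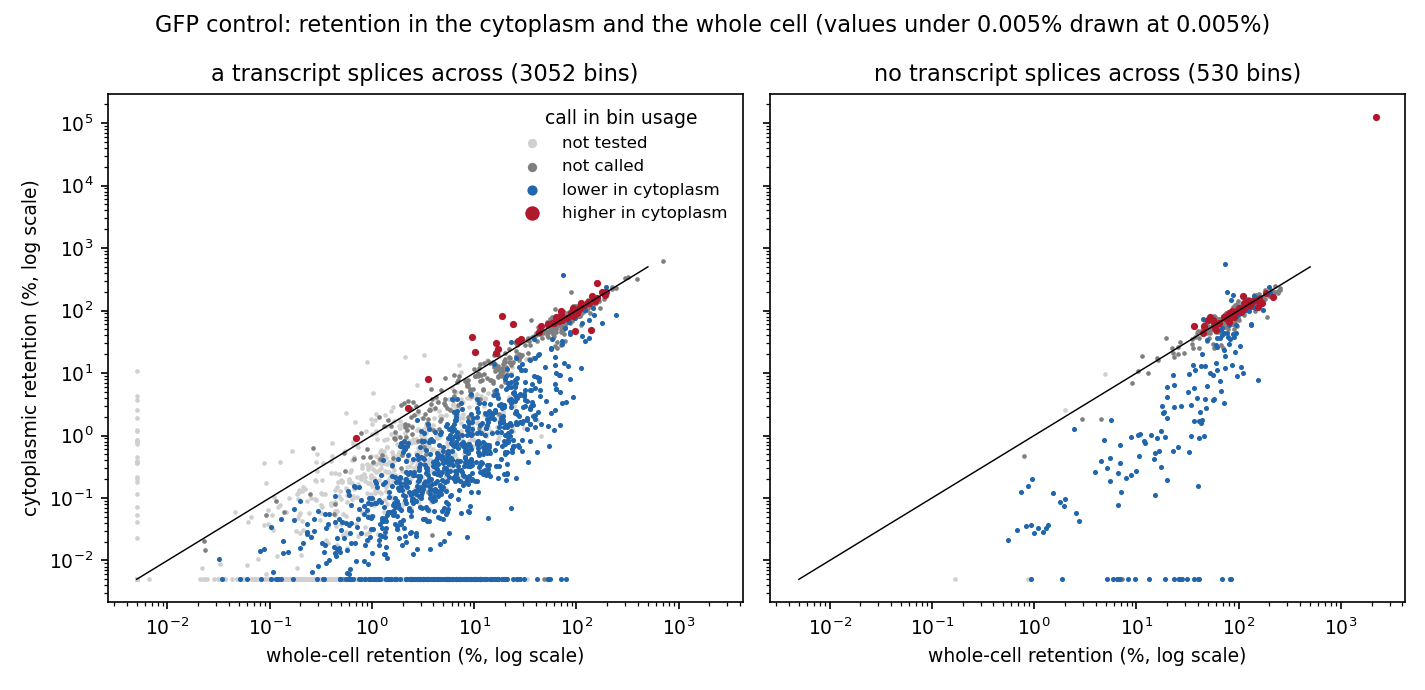
Retention in the GFP control, as the mean of 2 libraries in percent, in the cytoplasm (vertical axis) against whole cells (horizontal axis), both on log scales, for bins that a transcript splices across (left) and bins not spliced across (right). Each point is 1 bin, coloured by its call in bin usage, and points on the line had equal retention; most bins spliced across lie under the line, those with no cytoplasmic reads lie along the bottom, and 1 and 4 bins without a value in a fraction are not drawn.

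Among the bins spliced across, 1263 of 3053 (41.4%) had no read in either cytoplasmic GFP library, whereas 185 (6.06%) had none in whole cells. A retention of at least 10% was reached by 12.7% of these bins in the cytoplasm and by 25% in whole cells, and a retention of at least 50% by 7.99% in the cytoplasm and by 9.89% in whole cells. Introns between coding exons had the lowest medians, 0.0329% in the cytoplasm and 2.45% in whole cells (2560 bins). Introns in 3′ UTRs had medians of 46.5% in the cytoplasm and 58.5% in whole cells (136 bins). Introns in 5′ UTRs had 4.16% and 13.7% in the same 2 fractions (71 bins), and introns of transcripts with no coding sequence 47.6% and 65.0% (134 bins). By position, inner introns were retained least, with a median of 0.00642% in the cytoplasm and 2.39% in whole cells, first introns had 1.18% and 3.62%, and last introns 2.39% and 11.6%. The whole-cell median varied little with intron length, between 2.70 and 3.10% over 4 groups by length. It was 1.96% in the group of 4 with the least GC, at most 44.4%, and between 3.0 and 3.56% in the other groups.

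To ask whether the bins are used less in the cytoplasm, the usage of each bin, its level relative to the other bins of its gene, was compared between the fractions of the GFP control with limma at an adjusted p under 0.1 over all bins tested. Of 3427 retained-intron bins tested, 128 (3.74%) were higher in the cytoplasm, where 5.92% of all bins were, and 1888 (55.1%) were lower, where 8.32% of all bins were. The median log2 difference in usage, cytoplasm minus whole cell, was -1.68 over these bins and -0.04 over all bins. Of the tested bins spliced across, 1224 of 2060 (59.4%) were lower and 66 higher, with a median of -2.12. The bins not spliced across fell as well, with 664 of 1367 (48.6%) lower, 62 higher and a median of -1.03. A bin can reach the required mean through its whole-cell reads alone, so these counts describe the bins tested and not all 8428. Gene units that merge several genes held 1081 of the 8428 bins. Usage in such a unit is also relative to bins of the other genes, so it can shift with their levels. The count of calls was 2016, and 1276 without GFP whole cell replicate A.

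Of the 10 largest falls among bins with a mean of at least 20 scaled reads, 8 are described here, in 7 genes. Intron 7 of Trmt1, a tRNA methyltransferase gene (mm10 chr8:84695541-84696826), had retentions of 0.0964 and 0% in the cytoplasm, against 14.1 and 13.3% in whole cells. Its 2 cytoplasmic reads against 406 in whole cells put the ratio of retention at 0.00293 (95% counting interval 0.000353 to 0.0106). Intron 10 of Ewsr1, the gene of an RNA-binding protein, had 0.319 and 0.095% in the cytoplasm, against 28 and 23.7% in whole cells, a difference in usage of -6.86 on the log2 scale (SE 0.47, adjusted p = 7.5e-20).

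Clk2, a kinase of SR proteins, had 2 neighbouring introns among the falls. Intron 3 of Clk2 had no cytoplasmic read, against 13.3 and 9.28% in whole cells, at least 27.7-fold lower with 3 reads per library as the floor. Intron 4 had 0 and 0.14% in the cytoplasm, against 25.9 and 19.8% in whole cells. Intron 5 of Bcas2, a spliceosome component, had 0.031 and 0% in the cytoplasm, against 3.25 and 2.32% in whole cells. The bin of Slc25a3, the mitochondrial phosphate carrier, had no cytoplasmic read, against 28.8 and 34.4% in whole cells, at least 30.3-fold lower. Intron 10 of Idh3g, a subunit of isocitrate dehydrogenase, had 0 and 0.0471%, against 8.37 and 8.79%, and the bin of the ribosomal protein gene Rpl9 had 0 and 0.0141%, against 1.21 and 1.24%. In each of these bins both cytoplasmic values lay below both whole-cell values. Intervals and floors cover counting error only.

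Of the 10 bins with the largest rises in the cytoplasm, 5 were not spliced across, as were 62 of all 128 called higher and 1367 of the 3427 tested. A bin of Pdpk1, a kinase of the insulin pathway (mm10 chr17:24073751-24075811, not spliced across), had 292 and 395% in the cytoplasm, against 142 and 158% in whole cells (log2 difference in usage 2.35, SE 0.21, adjusted p = 1.22e-12). Values over 100% mean more reads per base than in the neighbours. A bin in the 3′ UTR of Six2, a homeobox gene, had 26.4 and 49.0% in the cytoplasm, against 6.26 and 12.7% in whole cells. Its annotated intron starts with AT and ends with TC, so it lacks the usual splice site bases. A bin of the chromatin remodeller Atrx had 68.9 and 45.9%, against 7.78 and 10.1%, but on 3 and 2 cytoplasmic reads. Bins of Arid2, Herc1 and Phospho1+Zfp652 (2 bins) and introns of BC006779 and Dab1 were also higher in usage, by 1.8 to 2.62 on the log2 scale. Usage and retention can part: intron 3 of Gm14288, a zinc finger gene model, had 51.3 and 33.0% retention in the cytoplasm, against 226 and 71.0% in whole cells, while its usage was 4.86 higher on the log2 scale (SE 0.72).

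Genes of splicing and export were described through lists chosen with earlier results of these data known. SR protein genes held 19 bins in 7 genes, of which 16 were tested between the fractions, with 2 higher and 13 lower in the cytoplasm and a median log2 difference of -3.98. Intron 3 of Srsf3 had 0.426 and 0.0906% in the cytoplasm, against 13.1 and 9.73% in whole cells (log2 difference -5.38, SE 0.35, adjusted p = 3.6e-15). Intron 3 of Srsf1 had 3.15 and 2.33% in the cytoplasm, against 31.3 and 38.5% in whole cells. Intron 4 of Srsf1, its neighbour downstream, had 60.3 and 52.6% in the cytoplasm, against 63.0 and 64.4% in whole cells, and its difference of -0.43 did not pass the test (SE 0.31, adjusted p = 0.476). A bin further downstream in Srsf1, E016, was higher in the cytoplasm, at 55.5 and 55.6%, against 37.2 and 35.6%. The last intron of Srsf2, in its 3′ UTR, was the other bin that was higher, with 43.2 and 45.9% in the cytoplasm, against 46.8 and 39.2% in whole cells, and a log2 difference in usage of 0.60 (SE 0.21, adjusted p = 0.0533). The Srsf2 bins E008, E010 and E012 were lower, by 4.68, 3.37 and 4.21 on the log2 scale. Within Srsf1 and within Srsf2, bins of 1 gene were thus called in opposite directions in usage. Since usage is relative to the other bins of the gene, falls in some bins by themselves raise the usage of others. The retention of the higher Srsf2 bin overlapped between the fractions.

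The other SR protein bins described were lower in the cytoplasm. In Srsf11, E035 had 1.46 and 1.66% in the cytoplasm, against 47.2 and 43.5% in whole cells, and E031 had 26.3 and 20.04%, against 71.1 and 72.2%. Its shortest listed bin, E027, had 37.9 and 0%, against 71.8 and 75.1%. Srsf5 E023 had 2.20 and 1.66%, against 17.8 and 10.6%, and the bin of Srsf10 had no cytoplasmic read, against 11.4 and 14.5%. Intron 5 of Srsf3 had 0.0653 and 0%, against 1.37 and 1.36%, and Srsf3 E008 was lower in usage by 5.49 on the log2 scale, with no retention value in GFP control B, where its neighbouring bins held no reads.

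SR kinase genes held 23 bins in 6 genes. Of 15 tested, 0 were higher and 11 lower in the cytoplasm, with a median log2 difference of -2.49. Intron 3 of Clk1, the founding member of its kinase family, had no cytoplasmic read, against 15.2 and 14.4% in whole cells. Intron 10 of Srpk1, the gene of SR protein kinase 1, had 0.590 and 0.795% in the cytoplasm, against 7.99 and 8.42% in whole cells. In Clk4, whose gene unit holds a second gene without a symbol, bins E021, E023 and E033 were lower as well, E021 with 1.69 and 18% in the cytoplasm against 46.7 and 58.4% in whole cells. Dyrk1a E013 (131 and 131%, against 135 and 132%) and Clk2 E032, in a noncoding transcript (231 and 312%, against 192 and 255%) did not pass the test. mRNA export genes held 13 bins in 6 genes, of which 6 were tested, with 0 higher and 3 lower. Their median log2 difference was -1.11, a smaller fall than the -1.68 over all retained-intron bins tested. Intron 7 of the helicase gene Ddx39 had 0.324 and 0.680% in the cytoplasm, against 3.58 and 3.79% in whole cells, and the bin of Poldip3 had 0.416 and 0.188%, against 6.56 and 4.59%. The first intron of Ddx39b, which shares its gene unit with the small nucleolar RNA SNORD83, had 2.14 and 1.02%, against 3.36 and 2.66%, and was lower by 0.85 (adjusted p = 0.0748). Intron 28 of Thoc2, a subunit of the THO export complex, had no read in any cytoplasmic library, against 13.4 and 14.4% in whole GFP control cells, and the difference in usage did not pass (-1.04, SE 0.59, adjusted p = 0.312).

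**Figure D2:**
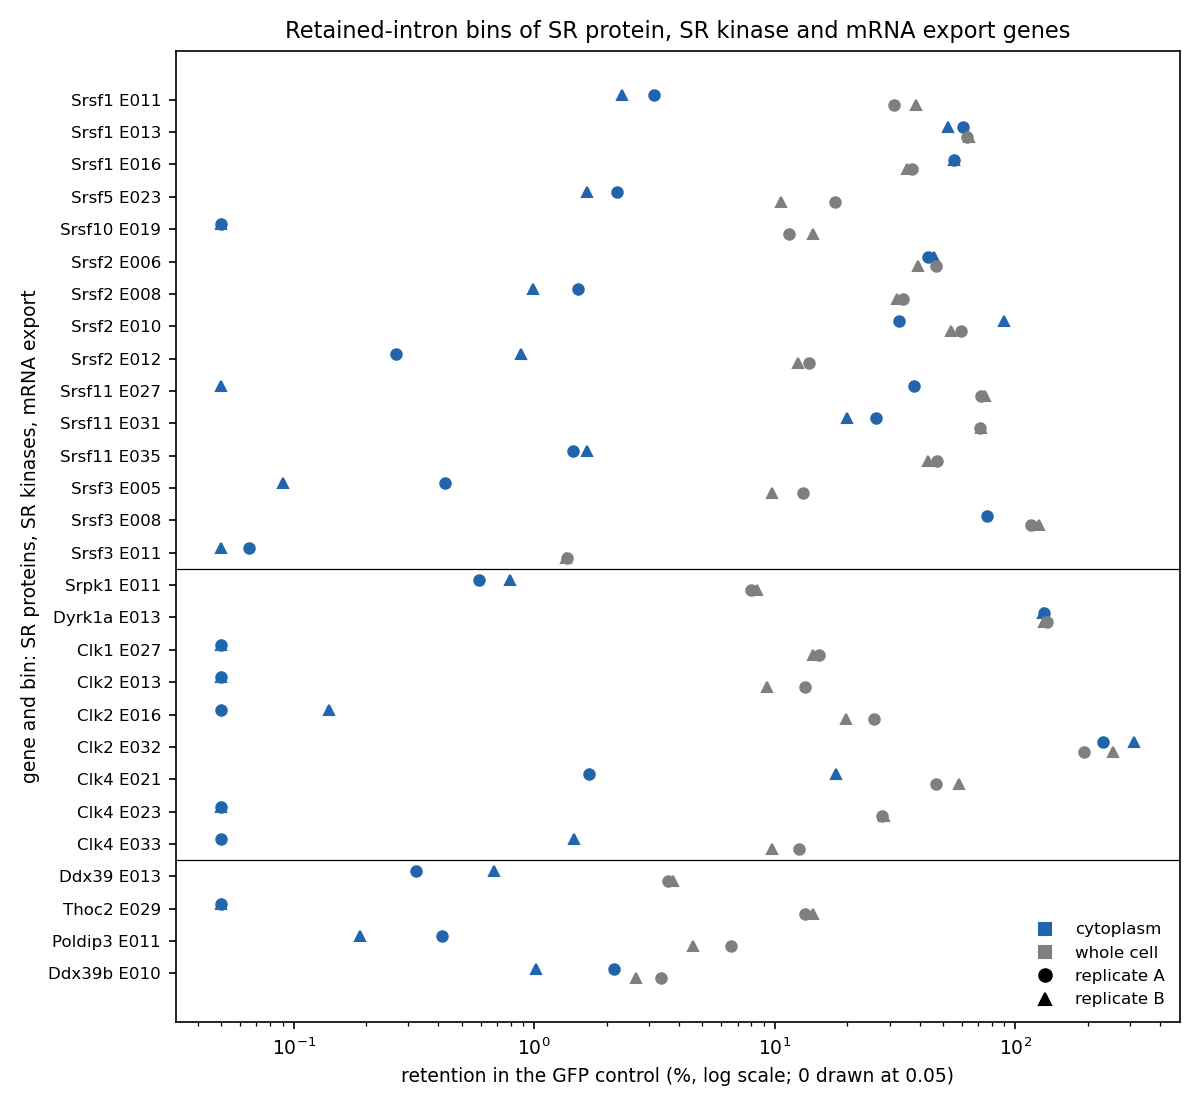
Retention in the GFP control, in percent on a log scale, of the 28 retained-intron bins in SR protein, SR kinase and mRNA export genes, listed from top to bottom, in the cytoplasm (blue) and whole cells (grey), where circles mark replicate A and triangles mark replicate B. Most blue symbols lie far left of the grey ones, while Srsf1 E013, Srsf2 E006 and Dyrk1a E013 have both colours together; Srsf3 E008 lacks a cytoplasmic value for replicate B.

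Other listed groups were lower in the cytoplasm too: 47 of 55 tested bins of spliceosome and SR-related genes, with 0 higher, 22 of 33 of hnRNP genes, with 1 higher, 12 of 17 of cleavage and polyadenylation genes, with 2 higher, and 4 of 4 of decay and exon junction genes. Genes with introns known to be retained had 30 of 35 bins lower and 1 higher, Snhg genes, the hosts of small nucleolar RNAs, 4 of 5 lower and 1 higher, and cytoplasmic ribosomal protein genes 67 of 88 lower and 2 higher. Their median log2 differences ran from -4.03 for the hnRNP genes to -2.49 for the Snhg genes, beside -1.68 over all retained-intron bins tested.

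To ask which knockdowns change the use of these bins, each knockdown was compared with the GFP control within a fraction, with the same test. The count of bins called higher exceeded the count called lower in 4 of the 5 whole-cell comparisons with any call. Summed over the 7 knockdowns, which share their control libraries, 189 bins were called higher and 43 lower in whole cells, and 47 higher and 33 lower in the cytoplasm. The same sums over all bins were 997 higher and 620 lower in whole cells, and 416 higher and 728 lower in the cytoplasm.

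**Figure D3:**
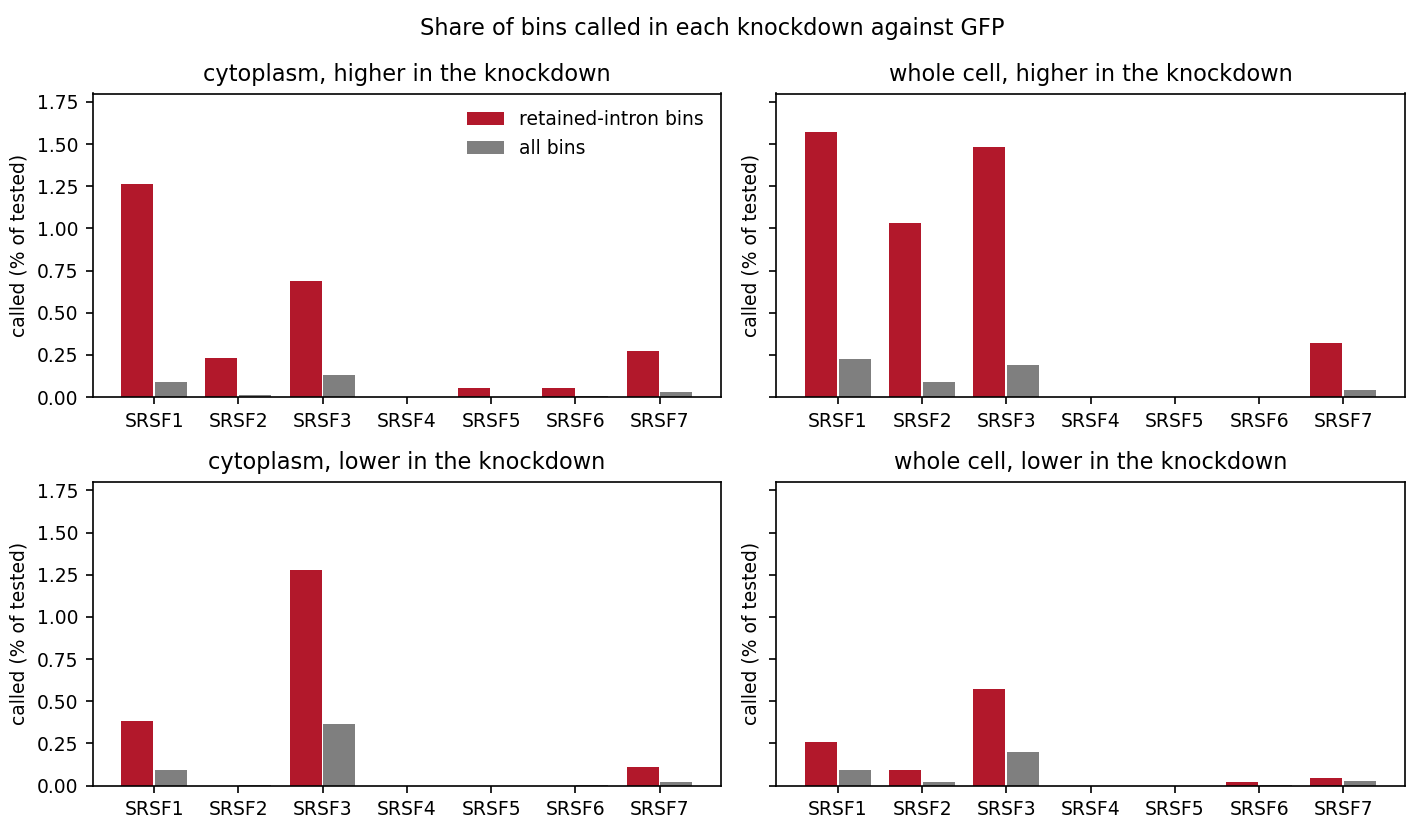
Share of bins called at an adjusted p under 0.1, in percent of the bins tested, for each knockdown against the GFP control, in the cytoplasm (left) and whole cells (right), higher (top) or lower (bottom) in the knockdown, for the retained-intron bins (red) and all bins (grey). In whole cells the tallest red bars are the bins higher in the SRSF1, SRSF3 and SRSF2 knockdowns, at 1.57, 1.48 and 1.03%, and in the cytoplasm those lower in SRSF3 and higher in SRSF1, at 1.28 and 1.26%.

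In whole SRSF1 knockdown cells, 66 of 4205 bins (1.57%) were higher, where 0.226% of all bins were, and 11 (0.262%) were lower, where 0.0955% of all bins were. Intron 16 of Rif1, a factor of replication timing and DNA break repair (mm10 chr2:52093590-52094588), had retentions of 32.9 and 49.3% in the SRSF1 knockdown, against 5.04 and 11.4% in the GFP control. Its usage was 2.41 higher on the log2 scale (SE 0.21, adjusted p = 9.05e-15). This is the intron with the GC at its 5′ end, and it was the only such intron among the 51 matched introns called higher, against 103 of all 5704 matched. Across the other knockdowns its whole-cell retention lay between 3.93 and 13.6%, and none of these changes passed. Intron 32 of Plcg1, a phospholipase gene (mm10 chr2:160761924-160762093), had 21.0 and 18.7% in the SRSF1 knockdown, against 4.82 and 4.11% in the GFP control (log2 change 1.99, SE 0.27, adjusted p = 3.96e-07).

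Intron 3 of Pofut1, the fucosyltransferase gene of Notch receptors, had 17.2 and 12% in the SRSF1 knockdown, against 4.48 and 1.14% in the GFP control (log2 change 2.35, SE 0.38, adjusted p = 0.00048). Exosc8, the gene of a subunit of the RNA exosome, had 3 bins called higher, which are also the only called bins of the decay and exon junction list (3 of 7 tested). They had 14.2 and 8.24% (E014), 27.8 and 17.4% (E010) and 10.3 and 7.28% (E019) in the SRSF1 knockdown, against 3.01 and 0.936%, 5.93 and 7.02%, and 2.80 and 3.60% in the GFP control. Las1l E015, a bin not spliced across in a gene of ribosomal RNA processing, had 87.9 and 99.9% in the SRSF1 knockdown, against 79.5 and 70.3% in the GFP control, while its usage was 2.24 higher (SE 0.24, adjusted p = 5.58e-09); retention sets a bin against its 2 neighbours and usage sets it against its whole gene.

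The falls in the SRSF1 knockdown were fewer. Intron 23 of Ehmt2, the histone methyltransferase G9a, had 2.32 and 2.92% in the SRSF1 knockdown, against 10.3 and 7.47% in the GFP control (log2 change -1.74, SE 0.33, adjusted p = 0.00105). Intron 4 of C130022K22Rik had 0.328 and 0.583%, against 1.88 and 1.90% in the GFP control. Intron 2 of Htatsf1, a factor of splicing and transcription elongation, had 1.47 and 2.24%, against 4.61 and 4.84%. The bin of the gene unit Wdr77+Ovgp1 had 93.4 and 90.7%, against 113 and 95.5%, and a usage lower by 1.86. Usage is here set against bins of both genes of the unit, and the part of their levels was not tested. The bin of the gene unit Gm16163+Trim67+Gnpat had 132 and 141%, against 148 and 169%, with an adjusted p of 0.0514.

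Among the listed genes, Hnrnph1 E011 was higher, with 21.7 and 21.0% in the SRSF1 knockdown, against 11.2 and 11.5% in the GFP control, as were, in usage, Hnrnpu E004, Snrpc E008, Nono E020, Cpsf4 E014 and Cpsf6 E022, the last with 13.5 and 11.2% against 4.52 and 3.79%. Hnrnph2 E009 was lower. Calls over all 77 bins depended on single libraries: the count was 15 without SRSF1 knockdown A, 48 without GFP control A and 29 without GFP control B. Rif1, Las1l and Plcg1 passed in all 4 fits that left out 1 library. Pofut1 and Exosc8 E014 missed the threshold without SRSF1 knockdown A (adjusted p = 0.192 and 0.782) and without GFP control B (0.115 and 0.447), and the 5 falls missed it without SRSF1 knockdown A (0.219 to 1), 3 of them without GFP control A (0.141 to 0.222) and 3 without GFP control B (0.38 to 1). Htatsf1 also missed it with edgeR (0.104).

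In the cytoplasm of the SRSF1 knockdown, 23 of 1821 bins (1.26%) were higher and 7 (0.384%) were lower, where 0.0917% of all bins were called in each direction. The last intron of Tmem55b, a lysosomal membrane protein gene (mm10 chr14:50928038-50928820), had 4.43 and 2.39% in the SRSF1 knockdown cytoplasm, against 0.288 and 0.590% in the GFP control (log2 change 2.91, SE 0.31, adjusted p = 3.83e-07). The last intron of the ribosomal protein gene Rps21 had 1.35 and 0.542%, against 0.0724 and 0.146% (adjusted p = 0.00457). In whole cells, the same Rps21 intron had 1.99 and 1.11% in the SRSF1 knockdown, against 0.611 and 0.267% in the GFP control (adjusted p = 0.0533). Intron 4 of Zfr2 rose to 67 and 71 reads, against 4 and 4 reads in the GFP control, on neighbours with few reads. Of the lower bins, Ndor1 E008 had 20.5 and 28.4%, against 52.4 and 57.7%, Pdpk1 E003 had 230 and 226%, against 292 and 395%, and Nisch E033 had 163 and 136%, against 197 and 274%. Gnao1 had its last intron, in a 3′ UTR, lower in usage, while the retention of 26.7 and 30.8%, against 38.7 and 22.5%, overlapped with the GFP control. The count of 30 calls was 13 without SRSF1 knockdown A, 48 without SRSF1 knockdown B, 5 without GFP control A and 8 without GFP control B. Tmem55b and Tpm2 E003 passed in all 4 of these fits, whereas Zfr2 and Rps21 failed without SRSF1 knockdown A (adjusted p = 0.26 and 0.281), GFP control A (0.647 and 0.617) or GFP control B (0.873 and 0.219). Of the 4 falls given, all missed it without GFP control A (0.104 to 1), 3 without GFP control B (0.241 to 1), 2 without SRSF1 knockdown A (0.116 and 1) and Gnao1 without SRSF1 knockdown B (0.39). With edgeR none of the 4 passed (0.427 for Ndor1 and 1 for the others).

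In whole SRSF2 knockdown cells, 44 of 4257 bins (1.03%) were higher, where 0.091% of all bins were, and 4 (0.094%) were lower, where 0.0208% of all bins were. Intron 17 of Abcf3, an ABC-family ATPase gene (mm10 chr16:20559380-20559640) had 48.9 and 51.9% in the SRSF2 knockdown, against 7.91 and 7.39% in the GFP control (log2 change 2.51, SE 0.40, adjusted p = 0.000418). Intron 2 of Rrp15, a gene of ribosome assembly (mm10 chr1:186737686-186739603), had 5.26 and 4.29% in the SRSF2 knockdown, against 1.07 and 0.942% in the GFP control (log2 change 2.20, SE 0.27, adjusted p = 0.000378). In the SRSF1 knockdown the same Rrp15 intron had 3.35 and 3.28% (log2 change 1.68, SE 0.28, adjusted p = 0.00488), and in the other knockdowns it lay between 0.520 and 1.47%. Intron 8 of Spna2, the non-erythroid alpha spectrin, had 7.59 and 5.57%, against 1.22 and 1.51% in the GFP control (adjusted p = 7.73e-05), and intron 3 of Crym, which encodes mu-crystallin, had 5.15 and 4.03%, against 1.76 and 1.06% (adjusted p = 0.00462).

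The last intron of Bola2, a gene of iron-sulfur cluster handling (mm10 chr7:126696281-126696554), rose in both fractions of the SRSF2 knockdown. It had 25.6 and 14.6% in the SRSF2 knockdown cytoplasm, against 4.55 and 3.06% in the GFP control (log2 change 2.47, SE 0.40, adjusted p = 0.0292), and 18.8 and 9.81% in whole SRSF2 knockdown cells, against 3.50 and 4.21% (log2 change 1.8, SE 0.30, adjusted p = 0.00661). In the other 6 knockdowns this intron lay between 2.21 and 6.52% in either fraction. Between the fractions of the GFP control its usage differed by -0.01 on the log2 scale (SE 0.26), beside a median of -2.12 over the tested bins spliced across. In the cytoplasm of the SRSF2 knockdown, 4 of 1742 bins (0.23%) were higher, where 0.0111% of all bins were, and 0 were lower, where 0.00278% of all bins were, while 45 were lower at an unadjusted p under 0.05 and edgeR called 2 bins in all. The other 3 were intron 2 of Fam113a, with 58.5 and 55.3% against 19.1 and 15.3%, the last intron of the transcription factor gene Gtf2ird1, with 19.8 and 17.4% against 10.6 and 10.6%, and, named after its values were seen because its level was under the limit for naming, Sugp2 E035, with 6.79 and 11.2% against 1.32 and 0.963%.

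The 4 bins lower in whole SRSF2 knockdown cells included 1 in a gene unit with Rnpc3, which encodes a protein of the minor spliceosome. Rnpc3+Amy1 E022 had 19.6 and 26.4% in the SRSF2 knockdown, against 48.0 and 38.8% in the GFP control. Intron 6 of Hnrpdl, an hnRNP gene, had 5.21 and 6.77%, against 12.9 and 10.4% (log2 change -0.90, SE 0.18, adjusted p = 0.0156). Whsc1l1 E013, in a histone methyltransferase gene, had 36.4 and 45.4%, against 52.2 and 52.4%, and BC056474 E004, named after its values were seen, had 0.608 and 2.98%, against 11.9 and 9.72%. The whole-cell count of 48 was 7 without SRSF2 knockdown A, 16 without GFP control A and 4 without GFP control B, and the cytoplasmic count of 4 was 91 without SRSF2 knockdown B and 0 without GFP control A or B. In whole cells, Abcf3 missed the threshold without GFP control B (adjusted p = 0.166), Rrp15 without SRSF2 knockdown A (0.235), and Spna2 without GFP control A or B (0.202 and 0.412). Bola2 and Crym missed it without SRSF2 knockdown A (0.184 and 0.293), GFP control A (0.71 and 0.202) or GFP control B (0.964 and 0.949). The named falls missed it without SRSF2 knockdown A (0.43 to 1) and without GFP control A (0.143 to 0.646), Rnpc3+Amy1 and Whsc1l1 also without SRSF2 knockdown B (0.279 and 0.359), and Hnrpdl and Whsc1l1 without GFP control B (0.507 and 1). In the cytoplasm, Bola2, Fam113a and Gtf2ird1 had an adjusted p of 1 without GFP control A or B, and Gtf2ird1 also without SRSF2 knockdown A and with edgeR. Whsc1l1 in whole cells missed the threshold with edgeR too (0.329).

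In whole SRSF3 knockdown cells, 65 of 4380 bins (1.48%) were higher, where 0.193% of all bins were, and 25 (0.571%) were lower, where 0.201% of all bins were. Hdac5, a class II histone deacetylase gene, held the largest rises, in 2 consecutive introns. Intron 12 (mm10 chr11:102204654-102204831) had 16.1 and 9.98% in the SRSF3 knockdown, against 0.697 and 0.534% in the GFP control (log2 change 4.06, SE 0.57, adjusted p = 7.7e-07). Intron 11 (mm10 chr11:102204964-102205283) had 11.4 and 6.74% in the SRSF3 knockdown, against 0.639 and 0.498% in the GFP control (log2 change 3.65, SE 0.47, adjusted p = 7.78e-08). In the other 6 knockdowns intron 12 lay between 0.396 and 1.63% in whole cells. In the cytoplasm intron 12 had 0.905 and 0.120% in the SRSF3 knockdown and no reads in the GFP control, and it was too low there to be tested. The 2 introns flank 1 exon.

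The other named rises in whole SRSF3 knockdown cells were in Tuba1b, Rps20 and Fignl1. Intron 2 of Tuba1b, an alpha-tubulin gene, had 2.57 and 1.04%, against 0.181 and 0.218% in the GFP control (log2 change 2.77, SE 0.56, adjusted p = 0.0266). The bin of the ribosomal protein gene Rps20, in a gene unit with the small nucleolar RNA snoU54, had 6.74 and 1.95%, against 0.410 and 0.260%. Intron 2 of Fignl1, a gene of recombination repair, had 60 and 42 reads, against 4 and 5 in the GFP control, while its retention of 35.1 and 30.8%, against 26.8 and 66.9%, overlapped. Cytoplasmic ribosomal protein genes as a list had a median log2 change of 0.40 over 99 bins in whole cells, with 1 called, beside 0.02 over all retained-intron bins.

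In the spliceosome and SR-related list, 2 bins were higher and 4 lower of 64 tested in whole SRSF3 knockdown cells. Sf3a1 E017 had 8.31 and 4.86% in the SRSF3 knockdown, against 3.22 and 1.42% in the GFP control, and Acin1 E011 had 1.65 and 0.810%, against 0.224 and 0.304%. Of Srrm1, a gene of a splicing coactivator rich in serine and arginine, 3 bins were lower, E037 with 11 and 12.6% against 22.2 and 20.4%, E041 with 2.93 and 3.73% against 7.04 and 6.87%, and E039 with overlapping retentions of 38.6 and 46.9% against 42.5 and 36.9%. Sf1 E037, in the gene of the branch point binding protein, had 35.4 and 49.9%, against 77.0 and 75.7%, and it was lower in the cytoplasm as well, at 39.9 and 42.9% in the SRSF3 knockdown against 74 and 61.9% in the GFP control. The bins with the largest falls were intron 1 of Pcnp, with 12.8 and 18% against 42.7 and 49.2%, intron 5 of Ift20, an intraflagellar transport gene, with 3.57 and 4.62% against 14.7 and 10.8%, Lnp E022 with 1.64 and 2.87% against 7.38 and 7.43%, intron 7 of the topoisomerase gene Top3b with 2.30 and 5.62% against 7.52 and 13.0%, and the Gm16163+Trim67+Gnpat bin, with 3 and 21 reads against 34 and 76. The count of 90 was 33 without SRSF3 knockdown A, 176 without SRSF3 knockdown B, 20 without GFP control A and 16 without GFP control B. The Hdac5 introns passed in all 4 fits that left out 1 library, whereas the other named rises failed without GFP control A (adjusted p = 0.423 to 1) or B (0.432 to 1), and Rps20 and Tuba1b also without SRSF3 knockdown A (0.272 and 0.169). The 5 named falls failed without SRSF3 knockdown A (0.22 to 1) or GFP control B (0.416 to 1), and 4 of them without GFP control A (0.158 to 1). Lnp and Top3b also failed with edgeR (0.157 and 0.938).

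In the cytoplasm of the SRSF3 knockdown, 13 of 1881 bins (0.691%) were higher, where 0.134% of all bins were, and 24 (1.28%) were lower, where 0.365% of all bins were. Of the lower bins, 16 were not spliced across, of 883 such bins tested (1.81%). The other 8 were spliced across, of 998 tested (0.802%). Itgav E045, in an integrin gene, had 61.9 and 54.3% in the SRSF3 knockdown, against 126 and 70.5% in the GFP control. Pdpk1 E003 had 175 and 215%, against 292 and 395%. Nras intron 8, in the 3′ UTR of the Ras gene (mm10 chr3:103065606-103067302), had 113 and 92.1%, against 103 and 101%, and its usage fell with that of its neighbours by 1.36 on the log2 scale (SE 0.17, adjusted p = 2.29e-05). Wdfy3 E003 (135 and 142%, against 137 and 147%) and Tead1 E035 (70.1 and 82.7%, against 64.6 and 52.4%) likewise changed in usage without a matching fall against their neighbours. With edgeR none of these 5 falls passed (adjusted p = 0.114 for Nras, 0.938 for Wdfy3 and 1 for the other 3). With limma Nras passed in all 4 fits that left out 1 library. Itgav missed the threshold in all 4 (adjusted p = 0.163 to 0.919), Wdfy3 without GFP control B (0.28), Tead1 without GFP control A (1) and Pdpk1 without GFP control A or B (1).

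Of the 5 named rises in the SRSF3 knockdown cytoplasm, Tpm2 E003 is described further on, and the other 4 had retentions under 4% in each library. The last intron of Eif4a1, a translation initiation helicase gene whose unit holds SNORA48 and SNORA67, had 1.32 and 0.401%, against 0.216 and 0.153%. The first intron of Pfn1, the gene of the actin-binding protein profilin, had 0.380 and 0.155%, against 0.0905 and 0.0903%. The last intron of 1810027O10Rik had 3.90 and 2.63%, against 0.923 and 1.07%, and E008 of ENSMUSG00000093674 had 2.39 and 1.09%, against 0.592 and 0.703%. In 3 of these 4, Eif4a1, Pfn1 and ENSMUSG00000093674, SRSF3 knockdown A, the library with the most Malat1, was over 2 times as high as SRSF3 knockdown B. All 4 missed the threshold without SRSF3 knockdown A (adjusted p = 0.17 to 0.865), GFP control A (0.247 to 1) or GFP control B (0.711 to 1), and 1810027O10Rik and ENSMUSG00000093674 also with edgeR (0.189 and 0.126). The count of 37 was 23 without SRSF3 knockdown A, 72 without SRSF3 knockdown B, 4 without GFP control A and 5 without GFP control B.

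In whole SRSF7 knockdown cells, 14 of 4345 bins (0.322%) were higher, where 0.0454% of all bins were, and 2 (0.046%) were lower, where 0.0271% of all bins were. Intron 5 of Jmjd6, a gene of a nuclear dioxygenase that acts on splicing factors (mm10 chr11:116837764-116838989), had 6.32 and 5.99% in the SRSF7 knockdown, against 2.04 and 2.48% in the GFP control (log2 change 1.36, SE 0.27, adjusted p = 0.0192). Intron 3 of Las1l had 2.67 and 2.53%, against 1.13 and 0.836% (log2 change 1.36, SE 0.26, adjusted p = 0.00961). Intron 18 of Arhgef18, a guanine nucleotide exchange factor gene, had 10.8 and 10.4%, against 2.50 and 3.56%, intron 5 of Eif4enif1, which encodes a transporter of eIF4E, had 2.24 and 2.27%, against 0.599 and 0.885%, and Racgap1 E029, in a gene of cytokinesis, had 6.51 and 4.68%, against 1.75 and 2.67%. The 2 lower bins were Rnf220 E020, with 11.5 and 22.6% against 35.4 and 33.8%, and intron 6 of the origin recognition gene Orc3, with 1.08 and 1.47% against 3.44 and 2.48%. The count of 16 was 0 without SRSF7 knockdown A, 4 without GFP control A and 7 without GFP control B, so none of the 7 named bins passed without SRSF7 knockdown A (adjusted p = 0.571 to 1). Of these 7, 4 also missed it without SRSF7 knockdown B (0.119 to 0.36), 6 without GFP control A (0.179 to 0.941) and 4 without GFP control B (0.35 to 0.651). With edgeR, Arhgef18, Eif4enif1 and Orc3 missed it (0.17, 0.15 and 0.103).

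In the cytoplasm of the SRSF7 knockdown, 5 of 1813 bins (0.276%) were higher, where 0.0321% of all bins were, and 2 (0.11%) were lower, where 0.0198% of all bins were. The Jmjd6 intron rose here as well, to 3.17 and 2.90% in the SRSF7 knockdown, against 0.503 and 1.01% in the GFP control (log2 change 2.06, SE 0.27, adjusted p = 6.08e-05). Intron 6 of Utp11l, a gene of the small ribosomal subunit, had 29.6 and 21.1%, against 13.0 and 16.3%, on 4075 and 3578 reads against 1906 and 2568. Intron 2 of Golga3, a Golgi protein gene, had 214 and 306%, against 47.7 and 115%, and E008 of ENSMUSG00000093674 had 1.33 and 1.08%, against 0.592 and 0.703%. The 2 lower bins were Nisch E033, with overlapping retentions of 232 and 330% against 197 and 274%, and the first intron of the ribosomal protein gene Rpl36a, with 0.956 and 1.23% against 1.75 and 1.85%. The count of 7 was 0 without SRSF7 knockdown A and 2 without GFP control A. The Jmjd6 intron passed with edgeR and missed the threshold without SRSF7 knockdown A (adjusted p = 0.219). Utp11l missed it in all 4 fits that left out 1 library (0.176 to 1). Golga3, ENSMUSG00000093674, Nisch and Rpl36a missed it in 3 of 4 each, all of them without SRSF7 knockdown A (1) or GFP control A (0.411 to 1), Golga3 also without SRSF7 knockdown B (0.682), and the other 3 without GFP control B (0.544 to 1). With edgeR these 5 bins had adjusted p-values of 0.926 to 1.

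The SRSF4, SRSF5 and SRSF6 knockdowns gave 2 calls in the cytoplasm and 1 in whole cells. In the SRSF4 knockdown, limma called 0 of 1757 bins in the cytoplasm (all bins 0.00207% higher and 0% lower) and 0 of 4298 in whole cells (0% in each direction), where 66 and 139 bins had an unadjusted p under 0.05 and edgeR also called 0. In the SRSF5 knockdown, 1 of 1796 bins was higher in the cytoplasm, where 0.00338% of all bins were, and 0 were lower (0%), with 31 lower at an unadjusted p under 0.05. It was Prpf8 E004, in the gene of the core of the spliceosome, named after its values were seen, with 83.7 and 53.8% in the SRSF5 knockdown, against 24.9 and 22.6% in the GFP control, on 25 and 23 reads against 5 and 4, and the count was 0 without SRSF5 knockdown A. In whole cells limma called 0 of 4311 bins in the SRSF5 knockdown (0% of all bins), with 177 at an unadjusted p under 0.05, 0 by edgeR, and 4 called without SRSF5 knockdown B. In the SRSF6 knockdown, Tpm2 E003 was the 1 of 1784 bins that was higher in the cytoplasm (0.004% of all bins), with 0 lower (0.00266%; 20 at an unadjusted p under 0.05), and Ncor1 E086 the 1 of 4429 that was lower in whole cells, with 0 higher (0.00164% of all bins in each direction; 133 higher at an unadjusted p under 0.05 and 0 called by edgeR). The Ncor1 bin, in a corepressor gene, had 15 and 13.0% in the SRSF6 knockdown, against 17.4 and 21.2% in the GFP control (adjusted p = 0.0777). The whole-cell count for SRSF6 was 0 without SRSF6 knockdown A, 3 without GFP control A and 2 without GFP control B, and the Ncor1 bin itself passed only without GFP control A. The cytoplasmic count was 2 without SRSF6 knockdown B and 0 without each other library.

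Tpm2 E003, an 820-base stretch of the muscle tropomyosin gene that is not spliced across (mm10 chr4:43514862-43515681), stood above the GFP control in every knockdown and both fractions. In the cytoplasm it had 59.9 and 43.8% in the SRSF1 knockdown, 29.9 and 23.9% in SRSF2, 32.4 and 24% in SRSF3, 14.9 and 17.1% in SRSF4, 16.3 and 15.1% in SRSF5, 41.4 and 32.1% in SRSF6 and 39.0 and 27.2% in SRSF7, against 9.61 and 13.0% in the GFP control. The change passed in the cytoplasm of the SRSF1 (2.27, SE 0.23), SRSF3 (1.54, SE 0.22), SRSF6 (1.78, SE 0.24) and SRSF7 knockdowns (1.56, SE 0.24, all log2), and it did not in SRSF2 (1.37, adjusted p = 0.262), SRSF4 (0.75) or SRSF5 (0.59). All 7 comparisons share the GFP libraries, so a low value there enters each of them. The call was lost in the SRSF6 knockdown without SRSF6 knockdown A (adjusted p = 0.447), GFP control A (1) or GFP control B (0.576), and in the SRSF7 knockdown without SRSF7 knockdown A (0.68) or GFP control A (0.736). In whole cells the bin passed in the SRSF1 (1.34), SRSF2 (0.85), SRSF3 (1.05) and SRSF7 knockdowns (1.06).

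The Jmjd6 intron was also called in the SRSF1 knockdown. It had 4.38 and 2.68% in the cytoplasm of the SRSF1 knockdown (log2 change 2.17, SE 0.33) and 6.75 and 6.66% in whole SRSF1 knockdown cells (1.57, SE 0.28), against the GFP values given above. In the SRSF2 to SRSF6 knockdowns it lay between 0.671 and 1.71% in the cytoplasm and between 2.71 and 4.72% in whole cells, and the changes did not pass.

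**Figure D4:**
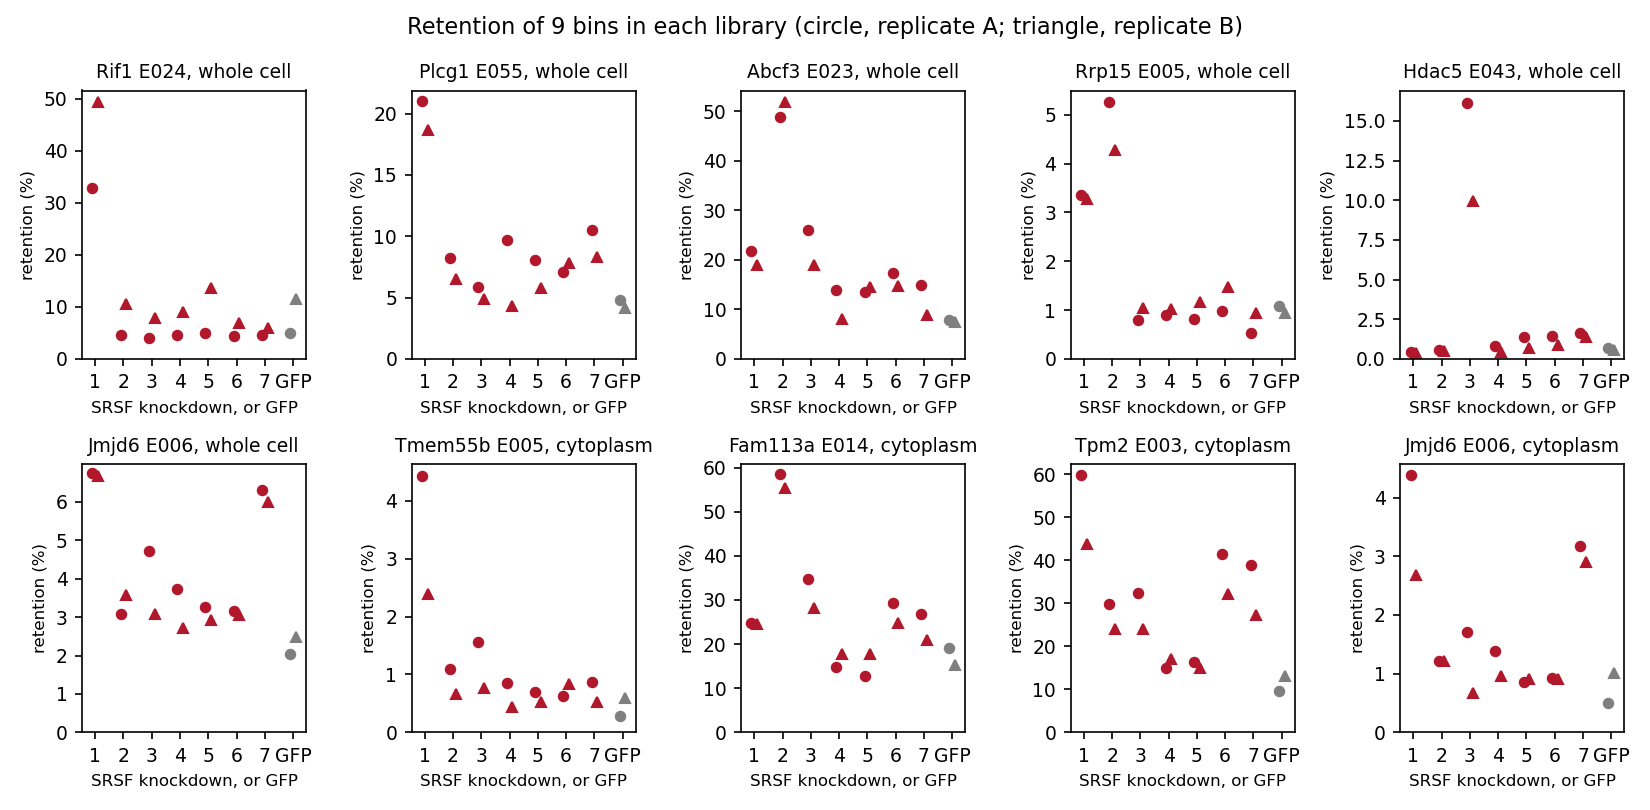
Retention in percent of 9 retained-intron bins in each library, in whole cells or the cytoplasm as each panel states, for the SRSF1 to SRSF7 knockdowns (red, from left to right) and the GFP control (grey, rightmost), where circles mark replicate A and triangles mark replicate B. Both SRSF1 knockdown values stand apart for Rif1 and Plcg1, both SRSF2 values for Abcf3 and Fam113a, and both SRSF3 values for Hdac5, while Tpm2 is lowest in the GFP control.

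To ask whether a knockdown acts differently on a bin in the 2 fractions, the change in whole cells was subtracted from the change in the cytoplasm in 1 model. In the SRSF1 knockdown 1 of 3469 bins passed, where 0.000585% of all bins did.

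In the SRSF3 knockdown 1 of 3635 bins passed, where 0.0151% of all bins did. It was the last intron of Gps2, a subunit gene of the NCoR corepressor complex (mm10 chr11:69916294-69916419). In the cytoplasm it had 11.7 and 6.63% in the SRSF3 knockdown, against 0 and 0.677% in the GFP control, which is 23.1 times higher over pooled reads (95% counting interval 7.6 to 115). In whole cells it had 35.0 and 27.3% in the SRSF3 knockdown, against 14.7 and 7.99% in the GFP control. The difference between the changes was 2.96 (SE 0.58, adjusted p = 0.0286), and it passed in 3 of 8 fits that left out 1 library and not with edgeR. No retained-intron bin passed in the SRSF2, SRSF4, SRSF6 or SRSF7 knockdowns, where 0% of all bins did, nor in the SRSF5 knockdown, where 0.000579% did; between 112 and 150 of the bins had an unadjusted p under 0.05 in these 5, and edgeR called 1 bin over all 7 knockdowns. The sum of 2 was 42 without SRSF2 knockdown cytoplasm B, 21 without SRSF3 knockdown cytoplasm B, 4 without cytoplasm B of SRSF1, SRSF4 or the GFP control, and 1 without GFP whole cell A, SRSF3 cytoplasm A, or SRSF3 whole cell A or B.

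Over all bins with covered neighbours, spliced across or not, the median retention was higher in each knockdown than in the GFP control by 0.0283 to 0.216 percentage points in the cytoplasm and by 0.116 to 0.809 in whole cells. Over the bins spliced across, the SRSF5 knockdown had 2.90 and 2.81% in whole cells, against 2.97 and 2.74%. In the cytoplasm their median was 0% in each GFP control library and in SRSF2 knockdown A, SRSF4 knockdown B and SRSF6 knockdown B. In whole cells it was 4.75 ± 0.121% in the SRSF3 knockdown, 4.66 ± 0.0294% in SRSF2, 4.64 ± 0.180% in SRSF7, 4.39 ± 0.650% in SRSF4, 4.30 ± 0.0665% in SRSF1, 4.23 ± 0.234% in SRSF6 and 4.06 ± 0.152% in SRSF5, against 3.94 ± 0.205% in the GFP control (SD, n = 2 each). The SRSF1, SRSF2, SRSF3 and SRSF7 libraries lay above both control libraries (exact permutation p = 0.33, the smallest that 2 against 2 allows), and those of SRSF4, SRSF5 and SRSF6 overlapped with the control. Over the bins spliced across alone, SRSF1 overlapped too, at 2.89 and 3.03% against 2.97 and 2.74% in the GFP control. Over bins whose neighbours averaged at least 100 reads, SRSF1 also overlapped (exact permutation p = 0.667). The SRSF2, SRSF3 and SRSF7 libraries stayed above the control in both settings. In the cytoplasm the SRSF3 knockdown had 0.304 ± 0.194%, against 0.0873 ± 0.0152% in the GFP control. Replicate A was above replicate B in each cytoplasmic group, as Malat1 was. The difference changed sign without SRSF4 knockdown A (-0.0147 points in whole cells, -0.0135 in the cytoplasm) and, for SRSF5 in whole cells, without GFP control B (-0.0288).

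**Figure D5:**
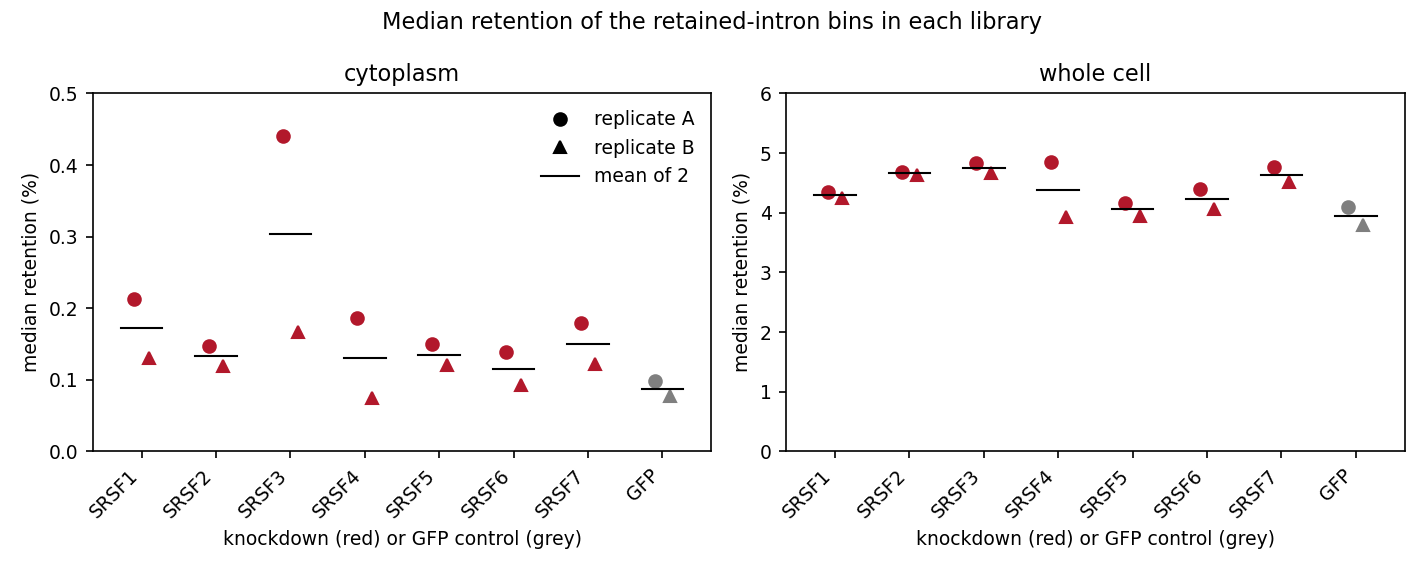
Median retention of the retained-intron bins in each library, in percent, in the cytoplasm (left, axis to 0.5%) and whole cells (right, axis to 6%), for the 7 knockdowns (red) and the GFP control (grey, rightmost), where circles mark replicate A, triangles mark replicate B and a line marks their mean. The GFP control has the lowest mean in each panel, and SRSF3 knockdown A is the highest cytoplasmic library.

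The introns called are described here by length and base composition, with no test. The 51 matched introns higher in whole SRSF1 knockdown cells had a median length of 910 bases and a median GC content of 44.8%, against 302 bases and 50.4% for the 2476 not called. The 29 introns higher in SRSF2 had medians of 992 bases and 46.5% GC, and the 9 higher in SRSF7 had 862 bases and 45.6%. The 53 introns higher in SRSF3 had 320 bases and 51.1% GC, against 295 bases and 50.4% for those not called. Reads went along with these lengths, since the called introns held medians of 80.6 (SRSF1), 52.8 (SRSF2), 73.9 (SRSF7) and 33.6 (SRSF3) scaled reads, against 18.1 to 18.9 for the introns not called, and the part of read number in the difference of length was not tested. Introns between coding exons made up 86.3% of those called higher in SRSF1, 93.1% in SRSF2, 92.5% in SRSF3 and 100% in SRSF7, against 71.1 to 72.1% of the introns not called.

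None of the bins in SR protein, SR kinase or mRNA export genes was called in any of the 14 knockdown comparisons with limma or edgeR. Few were tested, 40 to 42 bins in each whole-cell comparison and 9 to 13 in each cytoplasmic one, where at most 1.57% of the retained-intron bins tested were called in 1 direction. An unadjusted p under 0.05 was reached in 34 of 284 tests in whole cells and 2 of 75 in the cytoplasm. In whole cells the count ran from 2 of 40 in the SRSF5 knockdown to 10 of 42 in SRSF3. Over all retained-intron bins it was 177 of 4311 in SRSF5 and 653 of 4380 in SRSF3. Over all bins it was 2858 of 180286 and 6942 of 179591. Of the listed bins, the nearest to the threshold was Srsf5 E023 in whole SRSF1 knockdown cells (log2 change 0.66, SE 0.18, adjusted p = 0.141). In the targeted genes, intron 5 of Srsf3 was 1.05 higher in whole SRSF3 knockdown cells without passing (SE 0.49, adjusted p = 1), intron 3 of Srsf1 changed by -0.47 in whole SRSF1 knockdown cells (SE 0.22), and the 4 Srsf2 bins changed by -0.79 to 0.28 in whole SRSF2 knockdown cells.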

How the data were processed

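The submitters' processing notes list CASAVA 1.8.2, TopHat2 2.0.9 and 2.0.10, Bowtie2 2.1.0, Cufflinks 2.1.1 and cutadapt with the builds mm10 and mm9; which step used which, and the version of DEXSeq, are not given in the sources used here. Deposited DEXSeq tables hold a signal per exon bin, which the authors made by dividing the read count of each bin by 1 factor per library. Reads were recovered from that signal exactly: 100% of values were whole within 0.01, and 24 of 24 repeated GFP control columns gave identical reads. The file coordinates are mm10. The genome used for sequences was mm9 with GENCODE M1, matched by gene, intron length and splicing transcript, and nothing was converted between builds.

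Bin usage was tested with limma 3.58.1 (diffSplice, vooma weights) in R 4.3.3 on log2(value + 1), for bins with a mean of at least 5, with 2 knockdown and 2 GFP control libraries, and Benjamini-Hochberg adjustment over all bins (threshold 0.1). Fold changes are on that scale, which understates the change of low bins. The fractions and the interaction were compared on recovered reads at a common depth with TMM scaling. Retention was reads over bin length plus 74 bases, relative to the mean of both neighbours. Alternatives were edgeR 4.0.16, a replicate block, all 16 libraries of a fraction, a pseudocount of 5, other filters and leaving out each library. Leaving out libraries for the interaction and for the median retention was chosen after seeing the data.

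Named bins were the 5 largest changes per direction among those called with a mean of at least 20 and usage values that do not overlap between the groups (10 where over 100 were called), and every bin with that mean in SR protein, SR kinase and mRNA export genes; some of these bins are not reported here. Bins and gene lists were chosen with earlier results of these data known. In counts simulated for the SRSF3 whole-cell comparison, 100 retained-intron bins were changed at each size among 179784 bins. The test found 66% of the 2-fold and 100% of the 4-fold changes there. Bins low in reads were not changed, and the spread was a fixed assumption, not that of the replicates. These shares therefore do not measure what the test finds in the real libraries. Labels name biological replicates, but the letters A and B are not stated to mark a shared batch, so no pairing was used. Where libraries of a group were technical repeats, p-values measure only their spread.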

Additional observations from a re-analysis of the deposited data

Results flagged for a closer look

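The change of the last intron of Gps2 in the SRSF3 knockdown differed between the fractions. Its log2 change in usage was 2.96 higher in the cytoplasm than in whole cells by the interaction test, with a rise in both fractions. The control cytoplasm held 3 reads in this bin.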

How the results depend on the processing

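Among 115 results for single named bins, 0 of 1104 alternatives changed the direction and 871 kept the side of the threshold. Many of these bins were picked because they were called with large changes and usage that did not overlap. That choice favours an unchanged direction, so the 0 is no separate support for these results. The letters A and B are not stated to pair the samples, but A minus B differences of 2 groups correlated above 0.1 in 17 of 28 pairs of groups in the cytoplasm and 23 of 28 in whole cells, so a difference shared by the letters remains in the spread of the fits without a block. With the replicate block, the calls were 89 (SRSF1), 131 (SRSF3), 9 (SRSF6) and 27 (SRSF7) in the cytoplasm, 128 (SRSF1), 3 (SRSF6) and 29 (SRSF7) in whole cells, and 6 for the interaction. edgeR called 9 (SRSF1), 2 (SRSF2), 7 (SRSF3), 0 (SRSF5) and 2 (SRSF7) in the cytoplasm, 0 (SRSF6) and 8 (SRSF7) in whole cells, and 1 for the interaction. With all 16 libraries of a fraction the counts were 16 (SRSF1), 12 (SRSF2), 0 (SRSF5) and 2 (SRSF7) in the cytoplasm and 140 (SRSF3) in whole cells. With no filter they were 67 (SRSF3) and 2 (SRSF5) in the cytoplasm, 3572 between the fractions and 19 for the interaction. A mean of at least 20 gave 0 (SRSF5, cytoplasm), 842 between the fractions, where fewer bins were tested, and 1 for the interaction, as did a pseudocount of 5. Leaving out 1 library gave 5 to 48 (SRSF1), 0 to 91 (SRSF2), 4 to 72 (SRSF3), 0 to 1 (SRSF5), 0 to 2 (SRSF6) and 0 to 6 (SRSF7) in the cytoplasm, 15 to 54 (SRSF1), 4 to 45 (SRSF2), 16 to 176 (SRSF3), 0 to 4 (SRSF5), 0 to 3 (SRSF6) and 0 to 16 (SRSF7) in whole cells, 1276 to 2110 between the fractions and 1 to 42 for the interaction. The difference in median retention changed sign in 3 cases: it ranged from -0.0135 to 0.0985 (SRSF4, cytoplasm), from -0.0147 to 0.905 (SRSF4, whole cell) and from -0.0288 to 0.260 (SRSF5, whole cell). Unless a cause is given, it was not tested. The 2 libraries per group and the few cytoplasmic reads limit these counts.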
